A study of Mus musculus with 2 samples.

Results

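The 8 genes described here are the SLAM family receptor genes Slamf1, Slamf6, Slamf7, Cd84, Cd244a, Ly9 and Cd48 and the adaptor gene Sh2d1a, which encodes SAP. They were taken as a list by name, and all 8 are among the 32285 genes counted in the single-cell RNA sequencing of WT and DKO-severe T cells. TCRβ+ cells, which carry the αβ T cell receptor, were sorted from spleen pooled with cervical and inguinal lymph nodes of 1 WT mouse (Foxp3Cre) and 1 DKO-severe mouse (Foxp3Cre with Tet2 fl/fl and Tet3 fl/fl), both 14 weeks old. Both mice carry Cre at the Foxp3 locus (a YFP-Cre knock-in), so floxed Tet2 and Tet3 are deleted in cells that express or once expressed Foxp3, while other T cells of the DKO-severe mouse are not the intended target. The study calls this Cre leaky, and "severe" marks mice with strongly enlarged spleen and lymph nodes, so genotype and advanced disease cannot be told apart here. With 1 mouse per genotype there is no replicate, no test between genotypes was made, and every interval given is a 95% interval that covers counting error only.

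SLAM family receptors sit on haematopoietic cells, and most of them bind a copy of themselves on a neighbouring cell. CD48 is held in the membrane by a lipid anchor and is the ligand of CD244 and of CD2, while the other receptors have cytoplasmic tails with tyrosine motifs. When such a tyrosine is phosphorylated, SAP docks on it and brings in the kinase Fyn, and without SAP the same motifs can recruit phosphatases. The SLAM-SAP pathway is known for the long contacts of T follicular helper (Tfh) cells with B cells in germinal centres and for the development of natural killer T cells, and loss of SAP in humans causes an X-linked immunodeficiency.

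The 7 receptor genes form 1 cluster on chromosome 1 of the mouse genome (GRCm38, the same build as the mm10 of the deposited counts), from 171559193 to 171953170, a span of 394 kb. Along it lie Cd244a (171559193 to 171609746, plus strand), Ly9 (171588624 to 171607410, minus), Slamf7 (171632403 to 171653035, minus), Cd48 (171682009 to 171705258, plus), Slamf1 (171767127 to 171801184, plus), Cd84 (171839697 to 171890718, plus) and Slamf6 (171917515 to 171953170, plus). The annotations of Cd244a and Ly9 overlap on opposite strands, so their counts can be told apart only by strand, and the strand setting of the count is not given in the sources used here. Sh2d1a lies apart, on chromosome X from 42502453 to 42529330 on the plus strand.

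The docking motif of SAP reads threonine, any residue, tyrosine, any residue, any residue, then valine or isoleucine, and it was searched in the longest coding sequence of each gene in the GENCODE vM21 transcripts. Cd244a held 4 matches, Slamf1, Slamf6, Cd84 and Ly9 held 2 each, Slamf7 and Cd48 held 1 each, and Sh2d1a held 0. Of 21562 protein-coding genes, 7.95% held at least 1 match and 0.608% held at least 2. The single match in Cd48 is at codon 107 of 240, far from the end of a protein that has no cytoplasmic tail, whereas the matches in Slamf1 lie 55 and 8 codons before the end of the coding sequence and those in Slamf6 lie 56 and 32 codons before it. The coding stretches of Slamf6, Slamf1 and Slamf7, the receptors past 1 log2 unit between the genotypes at a mean of 20 CPM or more, are printed 5′ to 3′, each 18 bases long with the tyrosine codon in capitals, beside that of Cd48 for contrast.
Slamf6, first match, chr1:171939437-171939454, exon 6, plus strand: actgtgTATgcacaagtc
Slamf6, second match, chr1:171941664-171941681, exon 7, plus strand: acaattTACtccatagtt
Slamf1, first match, chr1:171792339-171792356, exon 5, plus strand: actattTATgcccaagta
Slamf1, second match, chr1:171799588-171799605, exon 7, plus strand: acagttTATgccagtgtg
Slamf7, chr1:171636327-171636344, exon 6, minus strand: acatttTATtccactgtg
Cd48, chr1:171695903-171695920, exon 2, plus strand: acctacTACatgagagtg

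After cell filters, 6584 WT and 6359 DKO-severe cells were retained, with a median of 5616.5 and 8066 UMIs (distinct captured molecules), and the genotypes shared no barcode. Cells were assigned to 5 gates by marker UMIs, none of them of a SLAM gene. The Foxp3-negative Cd4 gate held 1675 WT and 2407 DKO-severe cells, the Foxp3-positive Cd4 gate 64 and 331, the Cd8 gate 3052 and 1735, the innate-like gate (a Cd3 gene and Zbtb16, the transcription factor of innate-like T cells) 106 and 238, and the B gate 15 and 216. Of the innate-like cells, 74 in WT and 121 in DKO-severe fell in neither a Cd4 nor the Cd8 gate, and the rest were also counted in one of those gates. The level of a gene in a gate is its UMI sum in counts per 1000000 UMIs (CPM), and in such sums fewer expressing cells and less RNA per cell cannot be told apart. Tet2 measured 52.6 CPM in WT and 72.1 in DKO-severe Foxp3-negative cells and Tet3 116 and 102, and in Foxp3-positive cells Tet2 measured 56.6 and 71.6 and Tet3 89.3 and 85.2, but where these UMIs lie relative to the floxed exons was not examined, so the levels do not check the deletion. Markers of other cells moved with genotype in every T gate. The 5 granulocyte genes summed to between 72.5 and 83.8 CPM over the WT T gates and to between 1395 and 3807 CPM over the DKO-severe T gates, and 6 monocyte or macrophage genes went from 75.7 to 509 CPM in the Foxp3-negative gate, with none at 0. The list of regulatory T cell genes, in which Foxp3 is at 0 by the gate, came to 486 and 1288.5 CPM in WT and DKO-severe Foxp3-negative cells, and a cell without a Foxp3 UMI may still express Foxp3.

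In Foxp3-negative Cd4 cells, the adaptor gene Sh2d1a and the receptor genes Slamf6 and Cd48 were higher in the DKO-severe mouse, while Cd84, Slamf1 and Ly9 stayed close to the WT level. Sh2d1a measured 148 CPM in WT (141 to 156) and 335 CPM in DKO-severe (328 to 343), a 2.26-fold difference or 1.18 on the log2 scale (1.09 to 1.26). Slamf6, the homophilic receptor also called Ly108, measured 184 CPM in WT (176 to 193) and 381 in DKO-severe (373 to 389), 2.07-fold or 1.05 log2 (0.97 to 1.12). The intervals of WT and DKO-severe do not overlap for either gene. Cd48 measured 144 CPM (137 to 152) and 263 CPM (256 to 269), 0.87 log2 (0.78 to 0.95), short of the 1 log2 unit used here to call a difference.

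Cd84, Slamf1 and Ly9 did not share this difference. Cd84, a homophilic receptor of Tfh and B cells, measured 159 CPM in WT and 166 in DKO-severe, a difference of 0.06 log2 (-0.02 to 0.15). With each cell reduced to the same depth, the Cd84 difference was 0.21 log2, above that interval. Slamf1, the receptor that gives the family its name, measured 26.4 and 26.5 CPM, 0.01 log2 (-0.20 to 0.22). Ly9, another homophilic receptor, measured 48.8 and 41.0 CPM, -0.25 log2 (-0.41 to -0.09), but its difference was 0.01 log2 where each cell was reduced to the same depth.

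The 2 members most tied to cytotoxic cells were near the limit of detection in Foxp3-negative cells. Slamf7 measured 9.61 CPM in WT and 12.9 in DKO-severe, 0.42 log2 (0.08 to 0.77), and its ratio was 1.18 log2 at equal depth. Cd244a, the receptor for CD48, rested on 25 and 169 UMIs, 2.56 and 7.27 CPM, and its ratio of 1.51 log2 (0.90 to 2.18) came to 0.46 log2 once cells with 2 or more markers of B cells, of monocytes or macrophages, or of granulocytes were left out. Under the same exclusion Slamf6 stood at 1.12, Cd48 at 0.90 and Sh2d1a at 1.23 log2. This rule drops any cell with UMIs of 2 or more genes of such a marker list. Granulocyte genes summed to 83.8 CPM in WT and 2779 in DKO-severe cells of this gate. The rule may thus drop unlike shares of the 2 genotypes, and the cells left in each gate are not counted here.

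Counting only members at a mean of 20 CPM or more, 2 of 6 were at least 1 log2 unit higher in DKO-severe Foxp3-negative cells and 0 were lower, against 7.98% of 6301 genes higher and 3.3% lower. The median of all 8 members was 0.64 log2 and that of the 6 was 0.46, beside 0.10 for all genes. Slamf6 fell to 0.99 log2 with gates at 2 or more UMIs and to 0.89 log2 with immunoglobulin, haemoglobin, mitochondrial and ribosomal protein genes left out of the total, a change that moved every gene of this gate by -0.16 log2 and left Sh2d1a at 1.02. Relative to the median gene, Sh2d1a stood 1.07 and Slamf6 0.95 log2 units higher.

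**Figure D1:**
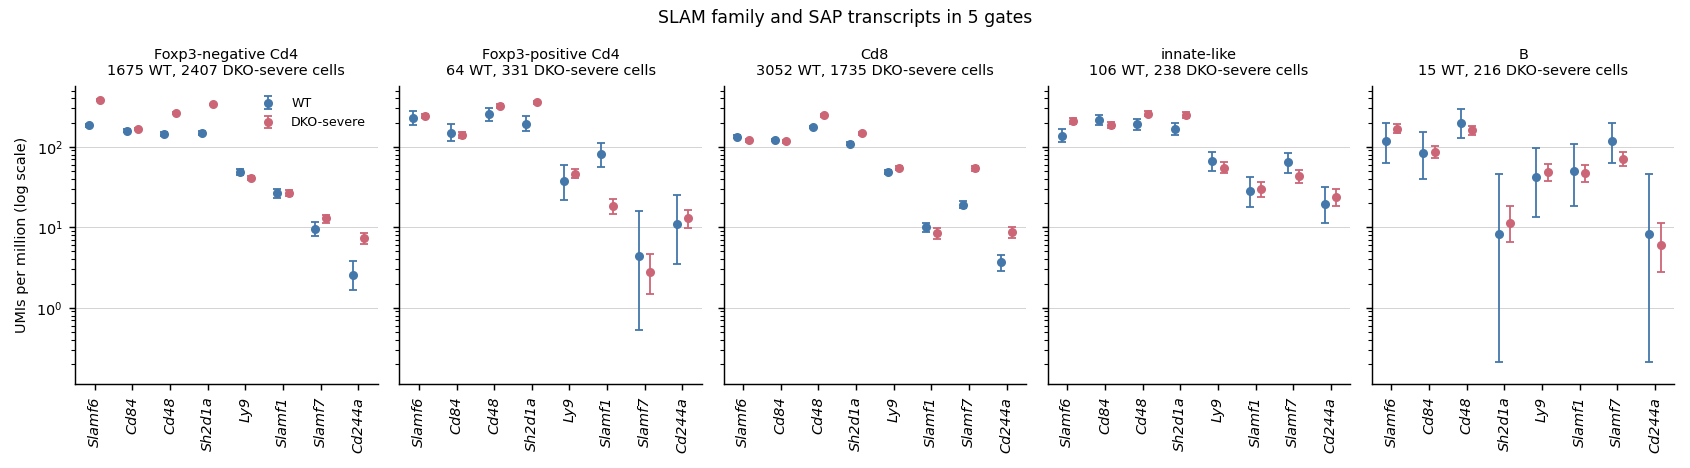
Level of each of the 8 genes in WT (blue) and DKO-severe (red) cells of 5 gates, in CPM on a log axis, with exact 95% Poisson intervals (counting error only) and the number of cells above each panel. The DKO-severe points stand above the WT points for Slamf6, Cd48 and Sh2d1a in the Foxp3-negative Cd4 gate, below for Slamf1 in the Foxp3-positive gate and above for Slamf7 in the Cd8 gate.

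**Figure D2:**
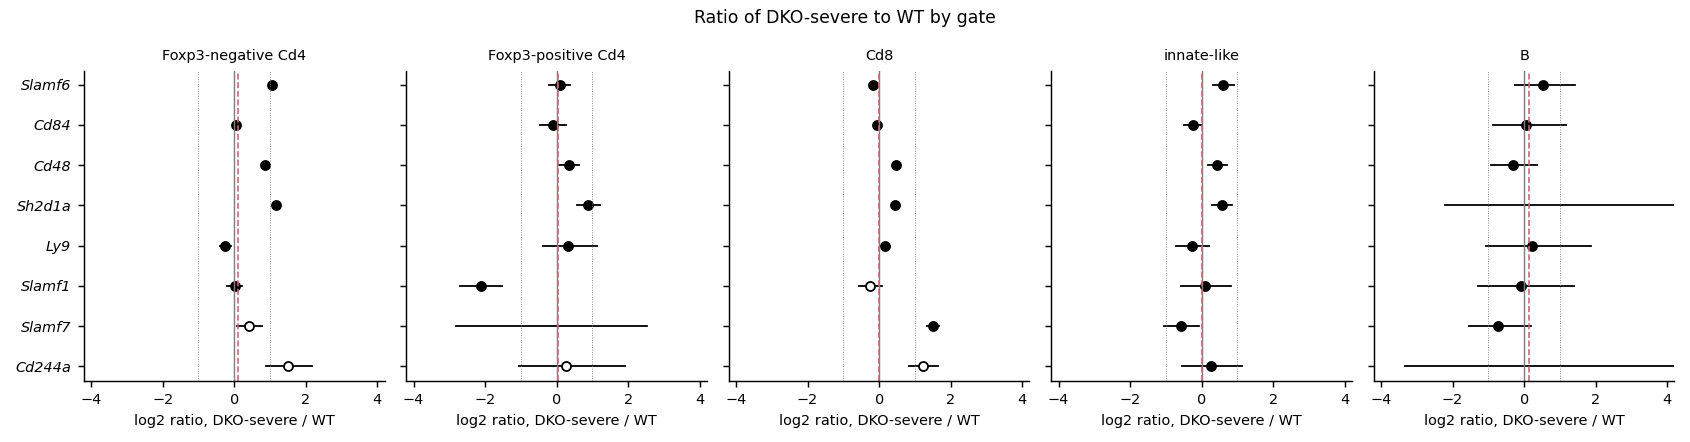
Log2 ratio of DKO-severe over WT for each gene and gate, with exact 95% intervals cut at the axis limits. Filled points have a mean of 20 CPM or more and open points less, a bar without a point rests on under 3 UMIs in 1 genotype, dotted lines mark 1 log2 unit and the red dashed line the median of all genes, which lies between -0.01 and 0.15.

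DKO-severe cells held more UMIs, so the share of cells in which a gene was seen was taken after each cell had been thinned at random to 3800 UMIs. At this equal depth, Slamf6 was seen in 497 of 1215 WT Foxp3-negative cells, or 40.9% (38.1 to 43.7), and in 1221 of 1848 DKO-severe cells, or 66.1% (63.9 to 68.2), while the unthinned shares were 51.0% and 81.3%. Cd48 was seen in 39.0% of WT (36.3 to 41.8) and 60.7% of DKO-severe cells (58.4 to 62.9), and Sh2d1a in 37.0% (34.2 to 39.7) and 58.9% (56.6 to 61.1). For these 3 genes more DKO-severe cells carried the transcript, by 21.6 to 25.2 percentage points. Ly9 and Slamf1 were each seen at a like rate in both genotypes, Ly9 in 194 of 1215 and 296 of 1848 cells and Slamf1 in 8.07% and 8.12% of cells. Cd84 was seen in 41.8% of WT (39.0 to 44.6) and 46.5% of DKO-severe cells (44.2 to 48.8). Sh2d1a is not expected in B cells, and in the B gate of the DKO-severe mouse it was seen in 6 of 201 cells, 2.99% (1.10 to 6.38), beside 3.98% for the T cell receptor gene Trac, at a median depth before thinning of 5135.5 UMIs against 7965 in the Foxp3-negative gate. Slamf7 (1.40% and 2.71%) and Cd244a (0.823% and 1.68%) lay below that share of Sh2d1a in Foxp3-negative cells. Background can differ by gene, so the Sh2d1a share cannot tell low expression of another gene from background. The shares of Slamf7 and Cd244a there are therefore not read as expression.

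**Figure D3:**
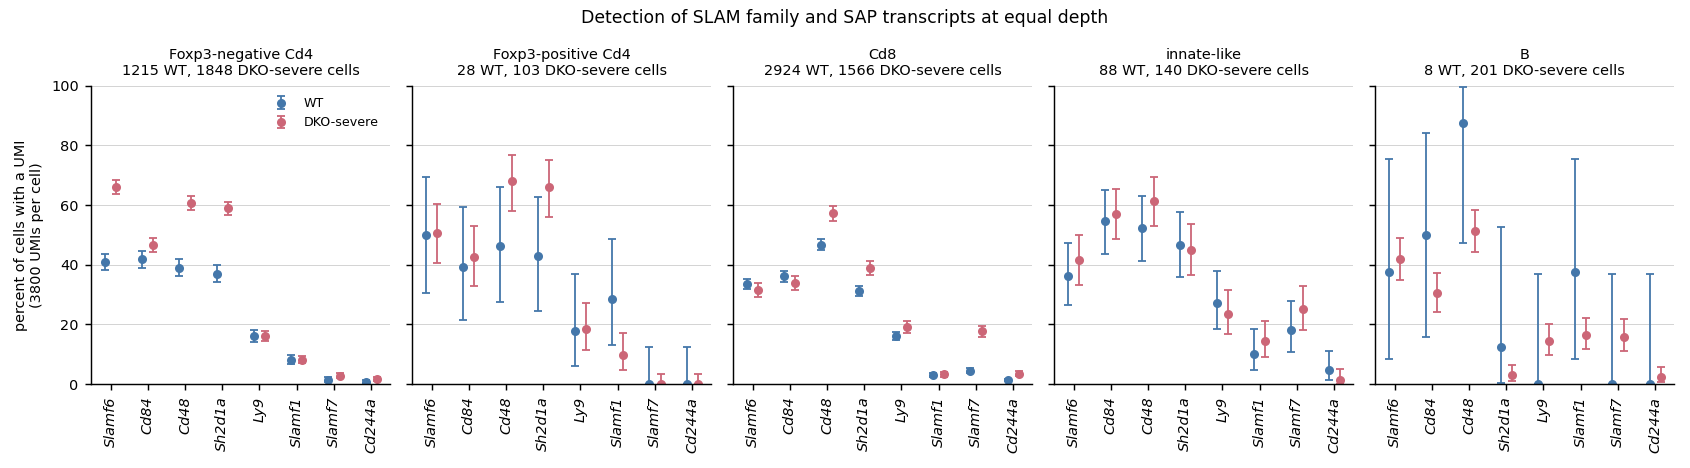
Percent of cells with at least 1 UMI of each gene after every cell was thinned to 3800 UMIs, for WT (blue) and DKO-severe (red) cells of 5 gates, with exact 95% Clopper-Pearson intervals (counting error only). Slamf6, Cd48 and Sh2d1a separate by genotype in the Foxp3-negative Cd4 gate, and the WT intervals of the Foxp3-positive and B gates are wide because they rest on 28 and 8 cells.

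The number of members seen in a cell sums the same shares. Out of 8 genes, a thinned Foxp3-negative cell showed a mean of 1.85 in WT (SD over cells 1.15) and 2.61 in DKO-severe (SD 1.16). Cells with 3 or more members made up 26.2% and 54.2%, and cells with none 11.2% and 3.35%. In the Cd8 gate the mean number was 1.72 and 2.05, and in the innate-like gate 2.50 and 2.69.

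The Foxp3-negative gates of the 2 mice hold different cell states. Of the genes of naive T cells, Lef1 measured 1122 CPM in WT and 250.04 in DKO-severe, Ccr7 186 and 47.6, and Tcf7 504 and 254. Tfh genes (Pdcd1, Cxcr5, Il21, Bcl6 and Icos) summed to 181 and 746. The gate was therefore split at equal depth by genes outside the family. WT and DKO-severe shares were 75.2% and 22.5% for a naive sub-gate (a UMI of Lef1 or Ccr7 and none of Cd44, Pdcd1, Cxcr5 or Il21), 9.38% and 46.6% for a Tfh-gene sub-gate (a UMI of Pdcd1, Cxcr5 or Il21), and 15.4% and 30.9% for the other cells. Absence of a UMI at this depth does not show absence of expression, so the naive sub-gate can hold cells of other states. Likewise, cells that lost their Foxp3 UMI in thinning can be among the Foxp3-negative cells here.

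Sh2d1a, Slamf6 and Cd48 were higher in DKO-severe cells of each sub-gate. In the naive sub-gate (914 WT and 416 DKO-severe cells), Slamf6 measured 162 CPM of thinned UMIs (thinned CPM) in WT and 370 in DKO-severe, 1.19 log2 (1.02 to 1.36), Cd48 129 and 259, 1.00 log2 (0.80 to 1.20), and Sh2d1a 126 and 267, 1.09 log2 (0.89 to 1.28). In the Tfh-gene sub-gate (114 and 861 cells) the differences were 0.89 (0.61 to 1.19) for Slamf6, 0.75 (0.38 to 1.13) for Cd48 and 1.08 (0.77 to 1.40) for Sh2d1a. In the remaining cells (187 and 571) they were 0.43 (0.21 to 0.66), 0.60 (0.33 to 0.87) and 0.98 (0.69 to 1.28). The difference in Sh2d1a was thus close to 1 log2 unit in all 3 sub-gates, and that in Slamf6 ran from 0.43 to 1.19.

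Cd84 differed by 0.10 log2 (-0.13 to 0.32) in the naive sub-gate and by 0.20 (-0.15 to 0.58) in the Tfh-gene sub-gate. Within the DKO-severe mouse, Tfh-gene cells carried more Sh2d1a than naive cells, 429 against 267 thinned CPM or 0.68 log2 (0.52 to 0.84), and somewhat more Slamf6, 463 against 370 or 0.32 log2 (0.19 to 0.46). In the WT mouse the same contrast gave 0.69 log2 (0.34 to 1.02) for Sh2d1a and 0.62 log2 (0.31 to 0.92) for Slamf6. Cd48 did not separate these cells, with -0.04 log2 (-0.21 to 0.14) in DKO-severe and 0.21 (-0.18 to 0.59) in WT. Against the other cells, DKO-severe Tfh-gene cells differed by 0.44 log2 (0.31 to 0.57) for Sh2d1a and 0.24 (0.12 to 0.36) for Slamf6. Their Cd48 was lower than in the other cells, -0.23 log2 (-0.39 to -0.08). In WT the values were 0.34 (-0.08 to 0.75) for Sh2d1a, -0.22 (-0.57 to 0.12) for Slamf6 and -0.38 (-0.83 to 0.05) for Cd48.

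**Figure D4:**
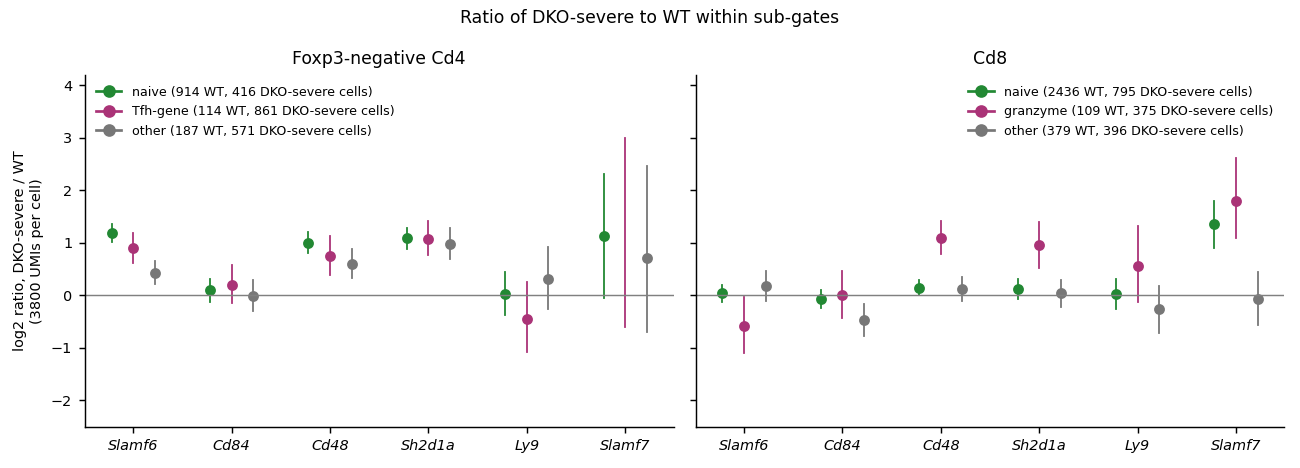
Log2 ratio of DKO-severe over WT thinned UMIs for 6 of the genes within sub-gates of Foxp3-negative Cd4 cells (left) and Cd8 cells (right), with exact 95% intervals (counting error only). On the left Slamf6, Cd48 and Sh2d1a lie above 0 in all 3 sub-gates, on the right Cd48 and Sh2d1a lie near 1 only in the granzyme sub-gate among the 3 shown, and the Slamf7 bar without a point rests on under 3 WT UMIs.

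Cells with a UMI of Cntn5 (contactin 5, a cell adhesion gene) made up 30.6% of DKO-severe and 3.54% of WT Foxp3-negative cells at equal depth. Among DKO-severe cells, the 565 with Cntn5 carried more Slamf6 than the 1283 without, 557 against 361 thinned CPM or 0.63 log2 (0.52 to 0.73), and more Sh2d1a, 418 against 331 or 0.34 log2 (0.22 to 0.46). They carried less Cd48, 222 against 287 or -0.37 log2 (-0.53 to -0.22), so the 3 genes that were higher in the DKO-severe gate did not go together here. In WT, the 43 cells with Cntn5 measured 159 thinned CPM of Slamf6 (104 to 233), against 191 (178 to 204) without. For Sh2d1a the WT values were 85.7 (46.8 to 144) and 140 (130 to 152). The intervals overlap for both genes.

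In Foxp3-positive cells, Slamf1 was the member that differed most, in the direction opposite to Sh2d1a. Slamf1 measured 80.6 CPM in WT (56.8 to 111; 37 UMIs) and 18.4 in DKO-severe (14.8 to 22.7; 87 UMIs), a 4.37-fold lower level or -2.13 log2 (-2.70 to -1.53). At equal depth it was seen in 8 of 28 WT cells, 28.6% (13.2 to 48.7), and in 10 of 103 DKO-severe cells, 9.71% (4.75 to 17.1), shares whose intervals overlap. One WT cell held 13.5% of the Slamf1 UMIs, and without the highest cell of each genotype the ratio was -2.02 log2. Across WT gates, Slamf1 was highest in Foxp3-positive cells, ahead of B (49.99 CPM, 18.3 to 109), innate-like (28.3, 17.9 to 42.4), Foxp3-negative (26.4, 23.3 to 29.8) and Cd8 cells (9.95, 8.65 to 11.4). Neighbours in this order overlapped in their intervals except the last pair. In DKO-severe cells the order ran from B (46.9 CPM) through innate-like (30.0), Foxp3-negative (26.5) and Foxp3-positive (18.4) to Cd8 (8.41).

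Sh2d1a measured 194 CPM (156 to 239) in WT and 357 CPM (340 to 375) in DKO-severe Foxp3-positive cells, 0.88 log2 (0.57 to 1.21). It was seen in 12 of 28 and 68 of 103 thinned cells. Cd48 measured 253 and 319 CPM, 0.34 log2 (0.06 to 0.62). At equal depth, over fewer cells, the ratio was 0.79 log2 for Cd48 and 0.58 for Sh2d1a, so the order of these genes depended on depth. The differences of Slamf6 (231 and 244 CPM, 0.08, -0.21 to 0.38), Cd84 (150 and 139 CPM, -0.11, -0.47 to 0.27) and Ly9 (37.0 and 46.4 CPM, 0.33, -0.39 to 1.13) had intervals that include 0. Slamf7, with 2 and 13 UMIs, and Cd244a, with 5 and 61, were scarce, and neither was seen in the 28 WT or the 103 DKO-severe thinned cells. By the limit of 3 counts this allows up to 10.7% and 2.91% of cells with a UMI at 3800 UMIs, a limit on detection and not on expression, since Cd244a was seen in 7.81% and 8.76% of the unthinned cells. Of the 6 members at 20 CPM or more, 0 were called higher and 1 lower, against 8% and 5.8% of 6488 genes. With cells carrying markers of other cell types left out, Sh2d1a reached 1.01 log2 and Slamf1 -1.70.

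Foxp3 itself set this gate, and among the other regulatory T cell genes Ikzf2 measured 2235 CPM in WT and 2623 in DKO-severe, Ctla4 442 and 435, and Il2ra 490.1 and 163. In the same gate Tfh genes summed to 296 and 703 CPM and monocyte or macrophage genes to 34.9 and 686 CPM, and the part of Tfh-like expression in the values of this gate was not tested. In DKO-severe, the 20 cells with a UMI of Dscam, a cell adhesion gene, carried less Slamf6 than the 83 without, 158 against 295 thinned CPM or -0.90 log2 (-1.90 to -0.03). The first value rests on 12 UMIs, and the shares of cells with Slamf6, 30% (11.9 to 54.3) and 55.4% (44.1 to 66.3), overlap in their intervals. The Sh2d1a level of the cells with Dscam was 447 against 380, 0.23 log2 (-0.36 to 0.79), which does not separate at this depth.

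In Cd8 cells, the member that set the genotypes apart was Slamf7, a homophilic receptor of natural killer and cytotoxic T cells that is known to signal through EAT-2 rather than SAP. It measured 19.1 CPM in WT (17.3 to 21.1) and 53.8 CPM in DKO-severe (50.4 to 57.5), 2.82-fold or 1.5 log2 (1.32 to 1.67). At equal depth it was seen in 4.41% of WT (3.70 to 5.22) and 17.6% of DKO-severe cells (15.8 to 19.6), and unthinned in 7.67% and 30.4%. Cd244a moved the same way at a low level, 3.67 and 8.65 CPM or 1.24 log2 (0.83 to 1.66). At equal depth Cd244a was seen in 1.23% of WT (0.86 to 1.70) and 3.38% of DKO-severe cells (2.55 to 4.40). Both intervals overlap that of Sh2d1a in the DKO-severe B gate, 2.99% (1.10 to 6.38), so these shares are not read as expression. The WT interval of Slamf7 overlaps it too, so the WT share of Slamf7 is not read as expression either. The DKO-severe share of Slamf7 lies above it. Cd48, the ligand of CD244, measured 175 and 245 CPM, 0.48 log2 (0.42 to 0.55), and Sh2d1a 109 and 147 CPM, 0.43 log2 (0.35 to 0.51).

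Slamf6 went the other way in Cd8 cells, with 134 CPM in WT (129 to 139) and 120 in DKO-severe (115 to 125), -0.16 log2 (-0.24 to -0.08), and its shares at equal depth, 33.4% (31.7 to 35.2) and 31.5% (29.2 to 33.9), overlap in their intervals. Cd84 differed by -0.05 log2 (-0.14 to 0.03), Ly9 by 0.17 (0.04 to 0.30) and Slamf1 by -0.24 (-0.56 to 0.07). Of 6 members at 20 CPM or more, 1 was called higher and 0 lower, beside 1.71% and 0.872% of 5848 genes. The median of the 8 was 0.30 log2 and that of all genes -0.01. In the same gate, 7 marker genes of natural killer and innate-like cells summed to 410 and 681 CPM. Of the 4 at 20 CPM or more, Tbx21, a transcription factor of cytotoxic T cells, differed by 1.93 log2, Il2rb, a receptor chain for IL-2 and IL-15, by 1.44, the receptor gene Klrd1 by 0.35 and the chemokine receptor gene Cxcr6 by -0.35.

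At equal depth, cells with a UMI of Gzma, Gzmb or Gzmk (the granzyme sub-gate) made up 3.73% of the Cd8 gate in WT and 23.9% in DKO-severe, and naive cells 83.3% and 50.8%. Within the DKO-severe mouse, all 8 members differed between granzyme and naive cells beyond counting error, 7 of them higher in granzyme cells. The share of all genes that differ in this way was not computed, so the count is not read as a result about the members. Slamf1 and Cd244a rested on 27 and 28 UMIs in the granzyme cells. Slamf7 measured 143 against 26.2 thinned CPM, 2.45 log2 (2.07 to 2.85), Cd48 505 against 186, 1.44 log2 (1.28 to 1.60), and Sh2d1a 247 against 109, 1.18 log2 (0.96 to 1.40). Slamf6 was the member lower in granzyme cells, 73.0 against 138 or -0.92 log2 (-1.24 to -0.61). In WT the same contrast, over 109 granzyme cells, gave 2.00 log2 (1.16 to 2.75) for Slamf7, 0.49 (0.18 to 0.79) for Cd48, 0.35 (-0.08 to 0.75) for Sh2d1a and -0.30 (-0.76 to 0.13) for Slamf6.

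Between the genotypes, granzyme cells of the DKO-severe mouse carried more Slamf7, 1.80 log2 (1.09 to 2.61), more Cd48, 1.09 (0.79 to 1.41), and more Sh2d1a, 0.95 (0.53 to 1.39), than those of the WT mouse, and less Slamf6, -0.57 (-1.09 to -0.04). Naive Cd8 cells differed little in Cd48, 0.14 log2 (0.00 to 0.28), in Sh2d1a, 0.12 (-0.07 to 0.30), and in Slamf6, 0.04 (-0.12 to 0.20). Slamf7 was higher in naive DKO-severe cells too, 26.2 against 10.3 thinned CPM or 1.35 log2 (0.90 to 1.80), but not in the remaining Cd8 cells (396 DKO-severe and 379 WT), with -0.06 log2 (-0.57 to 0.44). In naive WT cells Slamf7 was seen in 3.04% (2.39 to 3.80), which overlaps the interval of Sh2d1a in the DKO-severe B gate. Set beside the naive Foxp3-negative cells, where Slamf6, Cd48 and Sh2d1a differed by 1.00 to 1.19 log2, the naive Cd8 intervals of the same 3 genes reach no higher than 0.30.

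Innate-like cells had all 8 members at 20 CPM or more. Slamf6, which takes part in natural killer T cell development, measured 138 CPM in WT (113 to 166) and 209 in DKO-severe (193 to 226), 0.60 log2 (0.31 to 0.91). Sh2d1a measured 167 and 248 CPM, 0.57 log2 (0.30 to 0.84), and Cd48 189 and 256 CPM, 0.44 log2 (0.19 to 0.70). At equal depth the share of cells with Sh2d1a was 46.6% (35.9 to 57.5) in 88 WT cells and 45.0% (36.6 to 53.6) in 140 DKO-severe cells, and the ratio of its level there was 0.20 log2. None of the 8 was called higher or lower (0 and 0), against 5.39% and 1.85% of 6639 genes.

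Slamf7 measured 63.9 CPM in WT and 43.1 in DKO-severe innate-like cells, -0.57 log2 (-1.05 to -0.07), but the value was -1.05 with no doublets removed and 0.12 at equal depth, so its direction rests on the processing. Cd84 (216 and 184 CPM), Ly9 (66.4 and 54.8), Slamf1 (28.3 and 30.0) and Cd244a (19.7 and 23.4) had intervals of the ratio that include 0. The gate itself differed between the mice. Markers of natural killer and innate-like cells summed to 1544 CPM in WT and 938 in DKO-severe, with Zbtb16 at 450 and 201 CPM, while monocyte or macrophage genes summed to 1160 and 1578 CPM. With cells carrying 2 or more markers of other cell types left out, Sh2d1a differed by 0.24 log2, Slamf6 by 0.57 and Cd48 by 0.46.

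B cells entered the TCRβ sort as a minor group, and the 15 WT cells of the gate limit any comparison. In the 216 DKO-severe cells, Slamf6 measured 168 CPM (147 to 190), Cd48 162 (142 to 183), Cd84 87.1 (72.8 to 103), Slamf7 70.4 (57.6 to 85.2), Ly9 48.3 (37.8 to 60.8) and Slamf1 46.9 (36.6 to 59.3). Sh2d1a, the adaptor of T and natural killer cells, was near background with 17 UMIs or 11.4 CPM (6.64 to 18.2), and 1 UMI in WT. The ratios to WT had intervals that include 0 for all 8 members, and of 6 at 20 CPM or more 0 were called higher and 0 lower, beside 10.7% and 8.1% of 5877 genes. In WT, the B gate was mixed, since plasma cell genes (Jchain, Sdc1 and Mzb1) summed to 22694 CPM and 1 cell held 100% of the 303 UMIs of Lyz2, a gene of monocytes and macrophages.

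Whether receptors and adaptor were seen in the same cells was described at equal depth, within a gate and genotype. In DKO-severe Foxp3-negative cells, Slamf6 was seen in 70.3% of the 1088 cells with Sh2d1a (67.5 to 73.0) and in 60.0% of the 760 without (56.4 to 63.5). For WT the shares were 44.3% (39.7 to 49.1) and 38.9% (35.4 to 42.5). Cd84 was seen in 46.5% and 46.4% of DKO-severe cells with and without Sh2d1a, so it was not tied to the adaptor there. In DKO-severe Cd8 cells, Slamf7 was seen in 21.5% of cells with Sh2d1a (18.3 to 25.03) and 15.1% of those without (12.9 to 17.6), and Cd48 in 62.2% (58.2 to 66.0) and 54.1% (50.9 to 57.3).

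The 12 partner genes encode the second CD48 ligand, kinases, phosphatases, adaptors and the remaining family members. Of these, 8 passed 20 CPM in the Foxp3-negative gate. None of the 8 moved past 1 log2 unit in either direction there, against 7.98% of all genes higher and 3.3% lower. Fyn, the kinase that SAP recruits, measured 395 CPM in WT and 654 in DKO-severe, 0.73 log2 (0.68 to 0.78). Ptpn11, the phosphatase SHP-2, measured 44.2 and 81.8 CPM, 0.89 log2 (0.74 to 1.04), and Inpp5d, the lipid phosphatase SHIP-1, 119 and 167 CPM, 0.49 log2 (0.39 to 0.58). Prkcq, the kinase PKCθ downstream of the T cell receptor and SAP, went the other way with 712 and 455 CPM, -0.65 log2 (-0.69 to -0.60). In the Foxp3-positive gate, with a ratio of -1.09 log2 (-1.26 to -0.92), Prkcq was the 1 partner called lower of 8. Of all genes there, 5.8% were called lower and 8% higher. In the Cd8, innate-like and B gates, 0 of 8, 8 and 7 partners at 20 CPM or more were called. Of all genes, 1.71%, 5.39% and 10.7% were called higher in these gates and 0.872%, 1.85% and 8.1% lower. The counts of called partners are not read as results about the partners.

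Cd2, the other receptor for CD48, measured 316 and 305 CPM in Foxp3-negative cells, -0.05 log2 (-0.11 to 0.01). Ptpn6, the phosphatase SHP-1, Bcl10 and Vav1, which carry signals from the T cell receptor, differed there by 0.11 (-0.01 to 0.23), 0.47 (0.34 to 0.61) and -0.16 log2 (-0.29 to -0.03). Sh2d1b1, which encodes the SAP-like adaptor EAT-2, rested on 4 WT and 330 DKO-severe UMIs in this gate, 0.409 and 14.2 CPM or 5.12 log2 (3.75 to 7.0), below the level used for calls. Its close paralog Sh2d1b2 had 0 UMIs in every gate, and reads of the pair could have been lost or assigned to either copy. Monocyte or macrophage genes rose in the same gate (6 of 6 past 1 log2 unit), and their part in the Sh2d1b1 value was not tested. Slamf8 and Slamf9, family members of myeloid and B cells, had at most 24 UMIs in any gate.

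The position of the receptor genes was compared with their levels. Between and beside them, within 500 kb of the cluster, the matrices hold 50 other annotated genes, 4 of them inside the span and each of those under a mean of 20 CPM over the genotypes in every gate. In Foxp3-negative cells, 11 of the 50 passed 20 CPM, with ratios from -0.24 to 2.22 and a median of 0.20 log2. Fcer1g, the Fc receptor chain of myeloid cells and 1 of the monocyte or macrophage markers, was the single one past 1 log2 unit, at 2.22 log2 (1.99 to 2.46). Inside the cluster, the higher genes Cd48 and Slamf6 are separated by Slamf1 and Cd84, which differed by 0.01 and 0.06 log2, so the difference did not run along the cluster. In Cd8 cells 9 neighbours passed, with ratios from -0.22 to 0.13, while Slamf7 stood at 1.5.

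**Figure D5:**
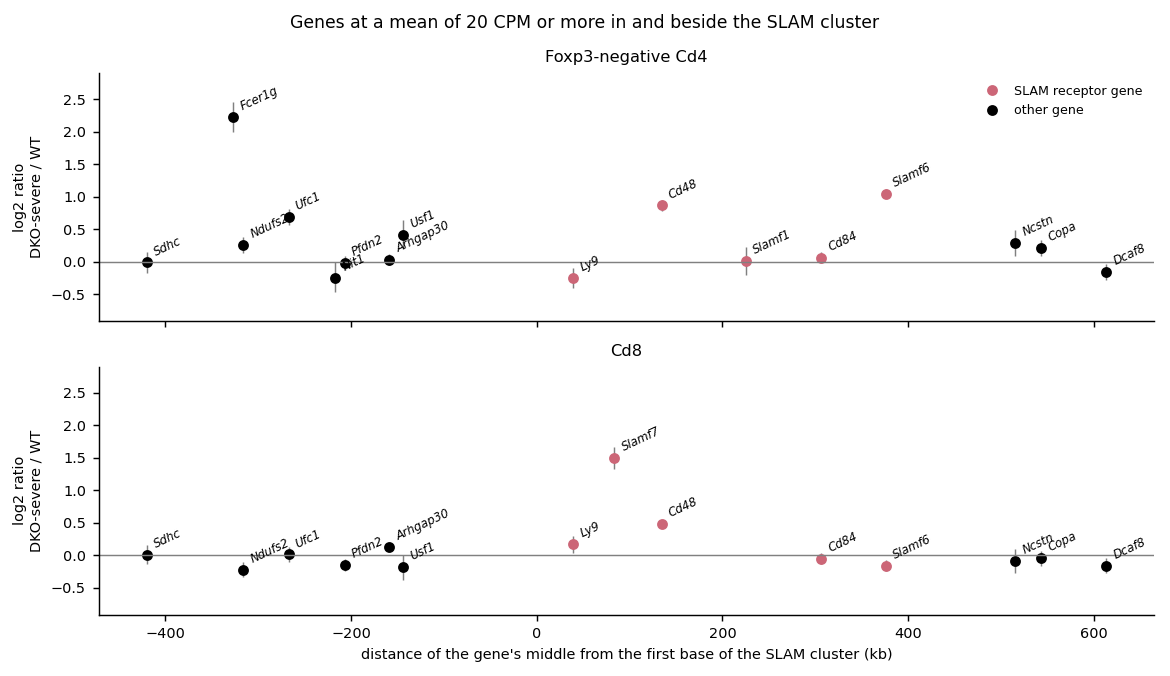
Log2 ratio of DKO-severe over WT for genes with a mean of 20 CPM or more in and around the receptor cluster, against the distance of the gene's middle from the cluster's first base in kb, in Foxp3-negative Cd4 cells (top) and Cd8 cells (bottom), with exact 95% intervals (counting error only). Red points are SLAM receptor genes and black points other genes. Slamf6 and Cd48 stand out in the top panel and Slamf7 in the bottom panel, with Slamf1 and Cd84 near 0 where they are shown.

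TET enzymes act on methylated CpG sites, so CpGs were counted in RefSeq promoter windows (GRCm38.p6, 250 bases before to 50 after the start), where 6 of the 8 genes have an entry. For a gene with several starts, only the first listed was used. The Slamf7 window (171648950 to 171649249, minus strand) lies inside the gene annotated above, which reaches 171653035. Slamf6 held 1 CpG in 300 bases, Cd244a 2, Slamf7 and Cd84 3 each, Slamf1 4 and Cd48 7, against a median of 7 over 27025 promoters. As many CpGs as Slamf6 or more are found in 94.2% of those promoters, and as many as Cd48 or more in 52.3%. No methylation was measured in these cells.

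Genes whose level followed that of Sh2d1a most closely were found by Pearson's r of log2(CPM + 5) over the 10 combinations of gate and genotype, which come from 1 library and partly share cells, as a description across 6419 genes. They were Fyn (r = 0.99), Gramd1b (0.98), Ndufv3 (0.98), Itpkb (0.98) and Tmsb4x (0.97). Fyn is the kinase that SAP recruits. Among the members, Cd84 came closest to Sh2d1a with 0.82, ahead of Slamf6 with 0.58 and Cd48 with 0.56, and Slamf7 was at -0.69. The B gate is among the points, with Sh2d1a at 8.33 CPM in WT and 11.4 in DKO-severe, against 109 CPM or more in each T gate. This order therefore partly reflects low levels in B cells, and r over the T gates alone was not computed. For Slamf6 the closest were Gm49180 (0.95), Arid5b (0.94), 2610204G07Rik (0.94), Lnx2 (0.92) and Foxp4 (0.92).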

How the data were processed

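Cells of both genotypes carried antibody hashtags (1 for WT, 2 for DKO) and were sequenced as 1 mRNA and 1 hashtag library with the 10x Genomics 3' kit v3.1. The deposited UMI counts were made by the authors with Cell Ranger 7.1.0 and mm10, unnormalised. The files hold 7189 WT barcodes (45294779 UMIs) and 7161 DKO-severe barcodes (69692053 UMIs), and 3 barcodes with more of the other hashtag were dropped.

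Cells needed 500 detected genes and at most 10% mitochondrial UMIs. Scrublet in scanpy 1.11.5 marked 0 doublets by its own threshold, so the highest 6% of scores per genotype were removed, a rule known from earlier work on these data. T gates required a UMI of Cd3d, Cd3e or Cd3g. Cd4 gates added a Cd4 UMI without Cd8a or Cd8b1, and the Cd8 gate the reverse. Foxp3 and Zbtb16 were scored at 1 UMI, and B cells had 2 or more of 4 B cell marker genes and no Cd3. Sub-gates are defined where used, and the naive Cd8 sub-gate had Lef1 or Ccr7 without Cd44 or the 3 granzymes.

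Log2 ratios count under 3 UMIs as 3, with exact conditional intervals. CPM intervals are exact Poisson and shares exact Clopper-Pearson, all at 95%. Thinning to 3800 UMIs left out 688 WT (10.4%) and 476 DKO-severe cells (7.49%), and gates were redrawn on thinned counts. The Foxp3-positive gate went from 64 to 28 WT and from 331 to 103 DKO-severe cells. A cell that lost its Foxp3 UMI in thinning could enter the equal-depth Foxp3-negative gate, and the number of such cells per genotype was not counted. The scripts were tested on simulated counts. Members, partners, gates and marker lists were chosen with earlier results of these data known, and the text names the members, the 12 partners, gate and marker genes, cluster neighbours and the 5 genes most like Sh2d1a and Slamf6. Alternatives varied the doublet, cell and gate rules, scaling, depth, pseudocount (5 CPM) and minimum level.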

Additional observations from a re-analysis of the deposited data

Results flagged for a closer look

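Slamf6 and Ly9 differed between genotypes in opposite directions in gates that share no cells, each beyond counting error. Slamf6 was higher in DKO-severe Foxp3-negative Cd4 cells (1.05 log2, 0.97 to 1.12) and lower in DKO-severe Cd8 cells (-0.16 log2, -0.24 to -0.08). Ly9 was lower in Foxp3-negative Cd4 cells (-0.25 log2, -0.41 to -0.09) and higher in Cd8 cells (0.17 log2, 0.04 to 0.30). The difference between gates was not tested, since each genotype is 1 mouse. At equal depth the Slamf6 values were 1.15 and -0.08 and the Ly9 values 0.01 and 0.20, so the sign of the Ly9 difference in Foxp3-negative cells depended on depth.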

How the results depend on the processing

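Of 434 log2 ratios under the alternatives, 384 stayed within the interval of the reported value and 50 moved outside it. In 36 of the 434 the sign differed from the reported ratio, none of these for a ratio of 1 log2 unit or more at a mean of 20 CPM, and among them were Ly9 in Foxp3-negative cells (0.01) and Slamf7 in innate-like cells (0.12), both at 3800 UMIs. The ratio of Sh2d1a in Foxp3-negative cells ranged from 1.02 to 1.37, Slamf6 from 0.89 to 1.18, Cd48 from 0.71 to 0.92, Slamf1 in Foxp3-positive cells from -2.82 to -1.66 and Slamf7 in Cd8 cells from 1.29 to 1.93. Leaving out the highest cell of each member was added after the data were seen.

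Counts of called members changed as follows. The share of all genes called was computed for the main settings only, so these counts are not read as results about the members. With gates at 2 or more UMIs, 1 was higher in Foxp3-negative cells, 1 higher in Foxp3-positive cells and 1 lower in the B gate. With immunoglobulin, haemoglobin, mitochondrial and ribosomal genes left out of the total, 1 was higher in Foxp3-negative cells. Without cells carrying markers of other cell types, 1 was higher in Foxp3-positive cells. With no doublet removal 1 was lower in innate-like cells. With equal weight per cell 1 was higher in the B gate, and at 3800 UMIs 3 were lower there, over 8 WT cells. With no minimum level, 2 were lower in Foxp3-positive cells, 2 higher in Cd8 cells and 2 lower in the B gate. Cd244a, at 1.51 log2, then joined Slamf6 and Sh2d1a as higher in Foxp3-negative cells. The median of the members moved to 0.45 in Cd8 cells with equal weight per cell and to 1.03 in Foxp3-negative cells at 3800 UMIs. The causes were not tested.

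Without thinning, the difference in the share of cells was 30.2 percentage points for Slamf6, 31.1 for Cd48 and 26.6 for Sh2d1a in Foxp3-negative cells and 22.7 for Slamf7 in Cd8 cells. At 2000 UMIs it was 18.2, 15.1, 17.4 and 8.01. The 64 WT Foxp3-positive and 15 WT B cells limit every value of those gates, and 1 mouse per genotype leaves the spread between mice unknown.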
